A study of Homo sapiens with 6 samples.

Results

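The genes described here are the writers and erasers of N6-methyladenosine (m6A) in mRNA together with CBLL1 and the reader YTHDF2, 10 genes of the 58825 in the deposited table. They were chosen by gene name, with the identifier of highest mean FPKM for each name, and each of the 10 names had 1 identifier. RNA-seq was performed on PANC-1, an established human line of pancreatic carcinoma cells. The 3 samples called MA PANC-1 1 to 3, here the treated samples, had received 40 μM maslinic acid (MA), a triterpenoid found in olives, for 24 h, and the 3 called PANC-1 1 to 3 were untreated by their labels. The culture methods of the study name DMSO for cells without MA, and its RNA-seq methods call the samples biological replicates. All come from 1 cell line, so the spread between them is that of cultures and libraries, not of patients.

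The mark m6A is placed on mRNA in the nucleus by a complex of a catalytic pair and several regulatory subunits. METTL3 transfers the methyl group, METTL14 is its partner without catalytic activity of its own, and WTAP, VIRMA, RBM15, ZC3H13 and CBLL1 bind the pair and help to place it on its targets. FTO and ALKBH5 remove the mark, and YTHDF2 binds marked mRNAs in the cytoplasm and recruits the machinery that degrades them. CBLL1, also called Hakai, was first known as an E3 ubiquitin ligase that acts on E-cadherin. It is one of the genes that the study named from these samples, joined with a proteome of PANC-1 cells under the same treatment. The study lists both its mRNA and its protein as up and significant, and protein was not examined here. Because these samples were used to name it, its own difference in them is not independent evidence of a change.

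The depth of the treated libraries 1, 2 and 3 was 56978375, 63984133 and 58181114 estimated counts, and that of the untreated libraries was 70275355, 65607669 and 59422939. In every library this estimate is larger than the number of valid reads in the quality table of the study, so it is not a number of sequenced fragments. MA PANC-1 2 stood apart from the other libraries. Averaged over its counts, transcript GC content was 51.8% in this library, whereas the other 5 had 50.4% to 50.9%. In a principal component analysis of log2 CPM its coordinate on the first component, with 26.4% of the variance, was −73.6, against −29.5 and 16.2 for the other MA PANC-1 samples and 18.0 to 44.9 for the PANC-1 samples. Values of the 10 genes that moved by more than 1.5 times without this library are given with and without it. METTL3 and FTO, with log2 fold changes near 0 throughout, were at −0.0093 and −0.0026 without it. The labelled cell type was checked against marker genes. KRT8, KRT18 and VIM were abundant (from 141, 278 and 521 FPKM upward), whereas the duct markers KRT19 and EPCAM were at most 0.109 and 0.132 FPKM and KRT7 was at 1.40 to 2.19 FPKM. All 11 acinar, endocrine, leukocyte and endothelial markers were at most 0.0275 FPKM in any sample. Of the 3 fibroblast markers, COL1A1 was at 2.64 to 5.96 FPKM, LUM at 0.351 to 0.616 FPKM and DCN at most at 0.0107 FPKM. In bulk RNA, fewer cells with a transcript and less of it per cell cannot be told apart.

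All 10 genes passed the filter on mean FPKM, set at 0.1, and were tested among 17774 genes on their estimated counts, with the quasi-likelihood test of edgeR. FPKM is scaled by depth and by a length for each gene, so comparisons between genes depend on that length. After Benjamini-Hochberg adjustment over all genes tested, none of the 10 had an adjusted p-value under 0.05, a threshold that 0.0394% of all genes passed. At an unadjusted p-value under 0.05 there were 3 of the 10, against 11.2% of all genes tested. CBLL1 had the higher level after MA, in a direction that 5.37% of all genes shared, and VIRMA and ZC3H13 the lower, as did 5.86%. The median log2 fold change of the 10 was 0.00, as was that of all genes. The FPKM values of the 2 groups did not overlap in 3 of the 10, VIRMA, ZC3H13 and ALKBH5, against 19.9% of all genes tested.

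**Figure D1:**
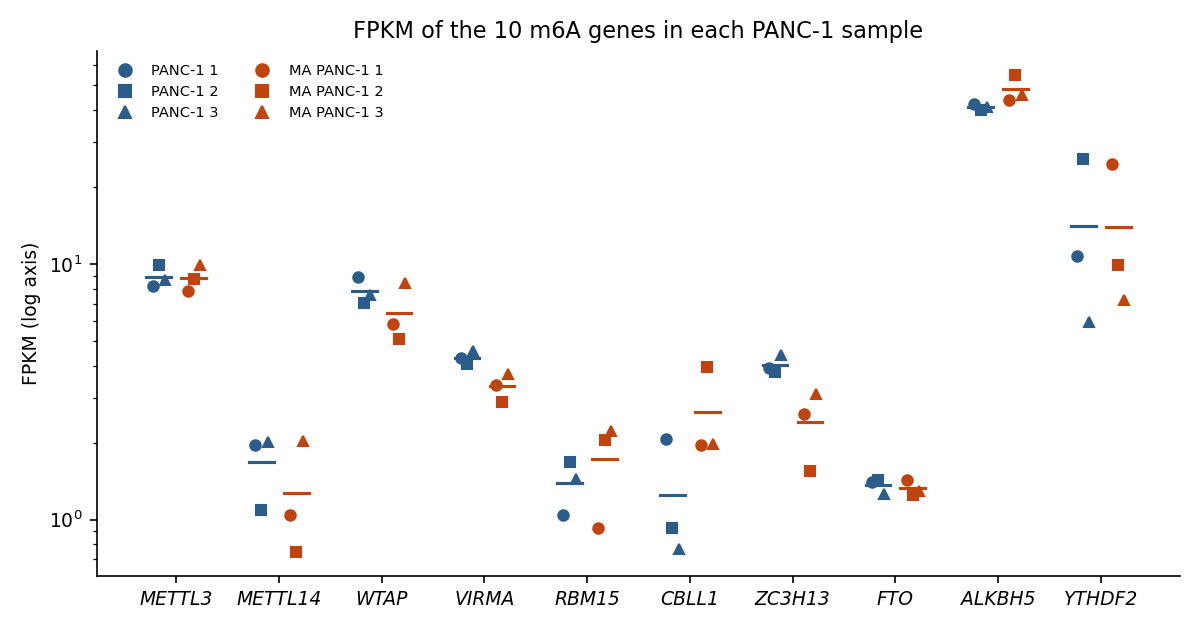
FPKM of each of the 10 genes on a log axis, with PANC-1 samples in blue and MA PANC-1 samples in orange, a marker shape for each replicate number and a bar at the mean of the 3 samples. ALKBH5 lies between 40.1 and 55.1 FPKM, the orange and blue points are apart in VIRMA, ZC3H13 and ALKBH5, and YTHDF2 spreads from 5.94 to 25.7 FPKM within the PANC-1 samples.

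In untreated PANC-1 cells the levels of the 10 genes spanned a 32.7-fold range of mean FPKM. ALKBH5 was the highest, at 41.1 ± 1.01 FPKM (SD, n = 3), and CBLL1 the lowest, at 1.25 ± 0.709 FPKM (SD, n = 3). From high to low, the order was ALKBH5, YTHDF2, METTL3, WTAP, VIRMA, ZC3H13, METTL14, RBM15, FTO and CBLL1. ALKBH5 was separated from YTHDF2, WTAP from VIRMA and ZC3H13 from METTL14, in that no sample of the lower gene reached the lowest sample of the higher one. The ranges of all other neighbours in this order overlapped. Thus METTL14, RBM15, FTO and CBLL1 formed a group of low level between 0.767 and 2.07 FPKM, in which the order is not set by these samples. After MA the order was the same as far as VIRMA, CBLL1 stood between VIRMA and ZC3H13, and METTL14 was the lowest. Apart from the steps below ALKBH5 and below WTAP, all neighbours overlapped in the MA PANC-1 samples. By FPKM the erasers thus lay far apart, with FTO near the bottom and ALKBH5 at the top of the order. The place of FTO depends on the length used in the scaling. In PANC-1 its estimated counts were 1905 to 2510, above those of METTL14 (589 to 1119), RBM15 (414 to 623) and CBLL1 (286 to 911). ALKBH5 had 10457 to 12712 counts there, so it was the higher eraser by counts too.

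METTL3 (ENSG00000165819, chromosome 14, 21498133 to 21511342, minus strand) was at 7.83, 8.74 and 9.94 FPKM in treated samples 1, 2 and 3 and at 8.17, 9.95 and 8.65 FPKM in untreated samples 1, 2 and 3. The groups overlapped almost completely. For this catalytic subunit the log2 fold change was 0.02, with a 95% interval from −0.29 to 0.33 (edgeR, adjusted p = 0.961). METTL14 (ENSG00000145388, chromosome 4, 118685392 to 118715430, plus strand) was at 1.04, 0.748 and 2.03 FPKM after MA and at 1.95, 1.09 and 2.00 FPKM without it. MA PANC-1 3 was the highest of all 6 samples and MA PANC-1 2 the lowest, so the groups overlapped. Its log2 fold change was −0.38 with an interval from −1.28 to 0.52 (edgeR, adjusted p = 0.714), and without MA PANC-1 3 it was −0.86 (unadjusted p = 0.0315, adjusted p = 0.242 from edgeR). Leaving out MA PANC-1 2 gave −0.13, and leaving out PANC-1 2 gave −0.61.

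The METTL3 level was 7.53, 11.7 and 4.89 times that of METTL14 in treated samples 1, 2 and 3 and 4.19, 9.09 and 4.31 times in untreated samples 1, 2 and 3. By FPKM, the mRNA of the catalytic subunit was thus the more abundant in every sample, and the ratios of the groups overlapped. The difference in the log2 ratio was 0.46, and an exact two-sided permutation test gave p = 0.5, where 0.1 is the smallest p that this test can give with 3 against 3 samples. Without MA PANC-1 2, which had the highest ratio, the difference was 0.15, and without PANC-1 2 it was 0.83.

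WTAP, the subunit that holds the catalytic pair in nuclear speckles (ENSG00000146457, chromosome 6, 159725585 to 159756319, plus strand), was at 5.82, 5.08 and 8.39 FPKM after MA and 8.89, 7.03 and 7.54 FPKM without it. MA PANC-1 1 and 2 were below all PANC-1 samples, whereas MA PANC-1 3 lay among them. By edgeR its log2 fold change was −0.25 ± 0.18 (adjusted p = 0.604; ± gives the standard error). Leaving out MA PANC-1 3 gave −0.47 (unadjusted p = 0.0118, adjusted p = 0.202 from edgeR). Leaving out MA PANC-1 2, the lowest sample, gave −0.14, and leaving out PANC-1 1, the highest, gave −0.15. On the opposite strand WTAP overlaps SOD2, whose count was 4008 in MA PANC-1 2, whereas the others had 1602 to 1874. The library kit marks strand, but whether the counting used it is not given in the sources used here.

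VIRMA, the large scaffold subunit (ENSG00000164944, chromosome 8, 94487689 to 94553529, minus strand), was at 3.37, 2.89 and 3.71 FPKM after MA and at 4.30, 4.06 and 4.57 FPKM without it. All 3 MA PANC-1 samples were below all 3 PANC-1 samples, as in 11.1% of all genes tested. The log2 fold change was −0.34 (standard error 0.11, unadjusted p = 0.0159, adjusted p = 0.414 from edgeR), and without MA PANC-1 2 it was −0.28. If PANC-1 3 was left out, the unadjusted p-value was 0.0616 (edgeR, log2 fold change −0.30). After removal of each library's GC trend the log2 fold change was −0.12 (unadjusted p = 0.172, adjusted p = 0.542 from edgeR).

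ZC3H13, the zinc finger subunit that links RBM15 to WTAP (ENSG00000123200, chromosome 13, 45954465 to 46052759, minus strand), was at 2.59, 1.55 and 3.10 FPKM after MA and at 3.903, 3.77 and 4.42 FPKM without it. Here too the groups did not overlap, and MA PANC-1 2 was the lowest sample. The log2 fold change of −0.71 (standard error 0.22, unadjusted p = 0.0132, adjusted p = 0.394 from edgeR) was the most negative of the 10. It was −0.50 without MA PANC-1 2 and −0.58 with the GC trend removed, and its unadjusted p-value was under 0.05 in all 18 alternatives, of which 1, the summing of same-strand genes, could not change its counts. The smallest adjusted p-value of any of the 10 genes in any alternative was that of ZC3H13 in DESeq2, 0.0726.

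RBM15, the RNA-binding subunit (ENSG00000162775, chromosome 1, 110338506 to 110346681, plus strand), was at 0.932, 2.06 and 2.22 FPKM after MA and at 1.04, 1.69 and 1.45 FPKM without it. MA PANC-1 1 was the lowest of all samples and the other MA PANC-1 samples the highest. Its log2 fold change was 0.35 with an interval from −0.48 to 1.19 (edgeR, adjusted p = 0.711), and without MA PANC-1 1 it was 0.66 (unadjusted p = 0.0353, adjusted p = 0.612 from edgeR). If MA PANC-1 2, MA PANC-1 3 or PANC-1 1 was left out, it was 0.17, 0.17 or 0.18. With limma on log2(FPKM + 0.1) and log2(FPKM + 1) it was 0.23 and 0.17. Its paralog RBM15B, which can take its place in the complex, was at 14.1 ± 0.868 FPKM (SD, n = 3) in MA PANC-1 and 13.8 ± 0.638 FPKM (SD, n = 3) in PANC-1. RBM15B had a log2 fold change of 0.06 (edgeR, adjusted p = 0.832).

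CBLL1 (ENSG00000105879, chromosome 7, 107743949 to 107761667, plus strand) was at 1.96, 3.95 and 1.98 FPKM in treated samples 1, 2 and 3 and at 2.07, 0.928 and 0.767 FPKM in untreated samples 1, 2 and 3. The estimated counts behind these levels were 698, 1583 and 723 against 911, 383 and 286. PANC-1 1 was above MA PANC-1 1 and 3, so that the groups overlapped, and the highest sample, MA PANC-1 2, was 2.01 times the lowest treated sample. The mean was 2.10 times that of PANC-1. This gave a log2 fold change of 1.12 (standard error 0.46, 95% interval from 0.04 to 2.21, unadjusted p = 0.0446, adjusted p = 0.441 from edgeR). CBLL1 was the only one of the 10 past the thresholds that the study used, an unadjusted p-value under 0.05 and a 2-fold change, as were 1.92% of all genes tested, and 0.675% in the same direction. With limma on log2(FPKM + 1), a scale that understates the change of low genes, its value was 0.69 and below 2-fold.

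The value for CBLL1 moved with single samples on both sides of the comparison. Without MA PANC-1 2 edgeR gave a log2 fold change of 0.65 (adjusted p = 0.630). Without PANC-1 2 edgeR gave 0.94 (adjusted p = 0.633), and without PANC-1 3 it gave 0.86 (adjusted p = 0.727). In none of these 3 was the unadjusted p-value under 0.05. Without PANC-1 1 it was 1.68 (unadjusted p = 0.00537, adjusted p = 0.727 from edgeR). With the GC trend removed it was 1.35. The unadjusted p-value of CBLL1 was under 0.05 in 15 of the 18 alternatives, all but the 3 fits above. Of the 15, 1, the summing of same-strand genes, could not change its counts. Its smallest adjusted p-value was 0.142, in DESeq2 (unadjusted p = 0.00565). CBLL1 overlaps the antisense gene AC002467 at its 5′ end, which had 100 to 168 counts per sample and was lowest in MA PANC-1 2, where CBLL1 was highest.

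**Figure D2:**
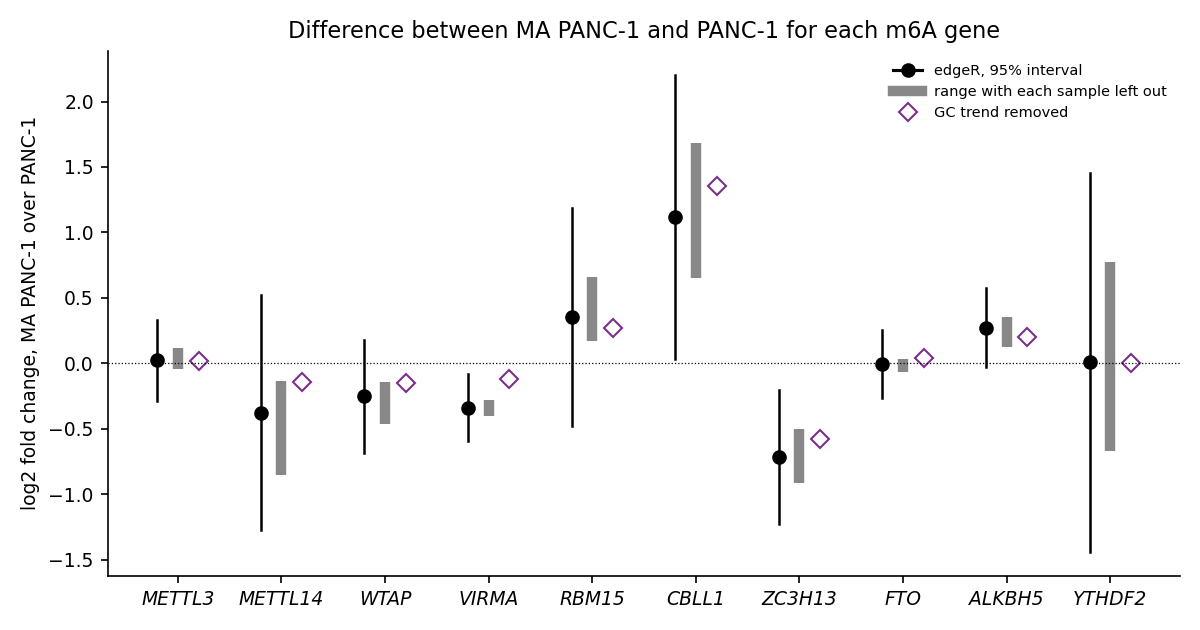
Log2 fold change of MA PANC-1 over PANC-1 for each gene, as edgeR's estimate with its 95% interval (black), the range over the 6 fits that leave out a sample (grey bar) and the value after removal of each library's GC trend (open diamond). The intervals of CBLL1, VIRMA and ZC3H13 do not reach 0, the open diamond of VIRMA lies at −0.12, and the grey bar of CBLL1 runs from 0.65 to 1.68.

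Because CBLL1 and the other subunits act in 1 complex, its level was also set against each of them within the same sample. The FPKM of CBLL1 was 0.759, 2.55 and 0.638 times that of ZC3H13 in treated samples 1, 2 and 3 and 0.530, 0.246 and 0.173 times in untreated samples 1, 2 and 3. All 3 MA PANC-1 ratios were above all 3 PANC-1 ratios, and the same held for the ratios of CBLL1 to VIRMA and to WTAP. For these the gap was small. The ratio to WTAP was 0.236 in MA PANC-1 3 and 0.233 in PANC-1 1, the nearest samples of the groups. The ratio to VIRMA was 0.534 and 0.481 in the same samples. The difference in the log2 ratio was 1.92 for ZC3H13, 1.51 for VIRMA and 1.44 for WTAP, each at p = 0.1 in an exact two-sided permutation test, the smallest p possible, and at 0.2 after Benjamini-Hochberg adjustment over the 6 ratios.

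Relative to METTL3, METTL14 and RBM15, the ratios of the groups overlapped. The differences in the log2 ratio were 1.14 (exact permutation p = 0.3), 1.61 (p = 0.2) and 0.88 (p = 0.3), each at 0.3 after adjustment. Without MA PANC-1 2 the differences were 1.2996 for ZC3H13, 1.08 for VIRMA, 0.95 for WTAP, 0.81 for METTL3, 0.95 for METTL14 and 0.72 for RBM15. With any 1 sample left out they ranged from 0.56 for RBM15 to 2.38 for ZC3H13. All 6 ratios share CBLL1 as numerator, so they are not 6 separate pieces of evidence. Each combines the difference of CBLL1 with that of the other subunit in the same samples. The log2 fold changes of METTL14, WTAP, VIRMA and ZC3H13 were negative, which adds to their differences in the ratio.

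**Figure D3:**
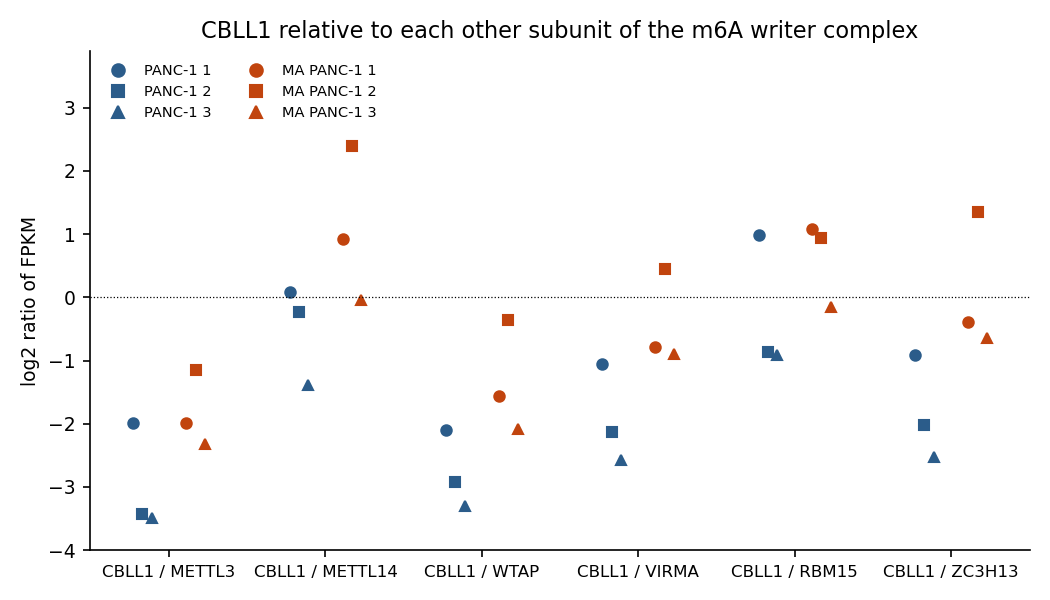
Log2 ratio of the FPKM of CBLL1 to that of each other writer subunit in every sample, with PANC-1 in blue, MA PANC-1 in orange and a marker shape for each replicate number. The orange points lie above all blue points for WTAP, VIRMA and ZC3H13 and overlap them for METTL3, METTL14 and RBM15, and MA PANC-1 2 is the highest point for 5 of the 6 subunits.

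FTO (ENSG00000140718, chromosome 16, 53701692 to 54153448, plus strand) was at 1.43, 1.25 and 1.29 FPKM after MA and at 1.40, 1.43 and 1.26 FPKM without it. These ranges nearly coincide. The log2 fold change of −0.01 had a 95% interval from −0.26 to 0.25 (edgeR, adjusted p = 0.987), so that a change of 2-fold in either direction lies outside the interval. The other eraser, ALKBH5 (ENSG00000091542, chromosome 17, 18183078 to 18209954, plus strand), was at 43.7, 55.1 and 45.7 FPKM after MA and at 42.1, 40.1 and 41.0 FPKM without it. All MA PANC-1 samples were above all PANC-1 samples, as in 8.80% of all genes tested. The log2 fold change was 0.27 with an interval from −0.03 to 0.57 (unadjusted p = 0.0679, adjusted p = 0.468 from edgeR). Leaving out MA PANC-1 2 gave 0.12. Leaving out MA PANC-1 1 gave 0.35, where the unadjusted p-value was 0.0409 (edgeR).

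YTHDF2 (ENSG00000198492, chromosome 1, 28736621 to 28769775, plus strand) was at 24.7, 9.89 and 7.22 FPKM in treated samples 1, 2 and 3 and at 10.7, 25.7 and 5.94 FPKM in untreated samples 1, 2 and 3. One sample of each group, MA PANC-1 1 and PANC-1 2, stood far above the others. The highest replicate was 4.32 times the lowest in PANC-1 and 3.43 times in MA PANC-1. Among 11470 genes at or above a mean FPKM of 1, the medians of this ratio were 1.17 and 1.32, and 1.47% and 2.37% of the genes had a ratio at least as large as that of YTHDF2. The log2 fold change of 0.01 had an interval from −1.44 to 1.45 (edgeR, adjusted p = 0.997), so that a 2-fold change in either direction lies within it. Leaving out MA PANC-1 1 gave −0.67, leaving out PANC-1 2 gave 0.77 and leaving out MA PANC-1 2 gave 0.18. The processed copy of this gene, YTHDF2P1, had at most 26 counts in a sample.

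The same ratio set the other genes apart by their steadiness. CBLL1 reached 2.70 in PANC-1, a value met or passed by 3.00% of genes, and METTL14 reached 2.72 in MA PANC-1, met or passed by 3.91%. ALKBH5 in PANC-1 was at 1.05, FTO at 1.14 in PANC-1 and 1.15 in MA PANC-1, and VIRMA at 1.12 in PANC-1, all below the medians. ZC3H13 was at 1.17 in PANC-1 but at 2.00 in MA PANC-1, where MA PANC-1 2 was the lowest sample. The intervals of the log2 fold change were narrow for VIRMA, FTO, ALKBH5 and METTL3 and wide for CBLL1, METTL14, RBM15 and YTHDF2.

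**Figure D4:**
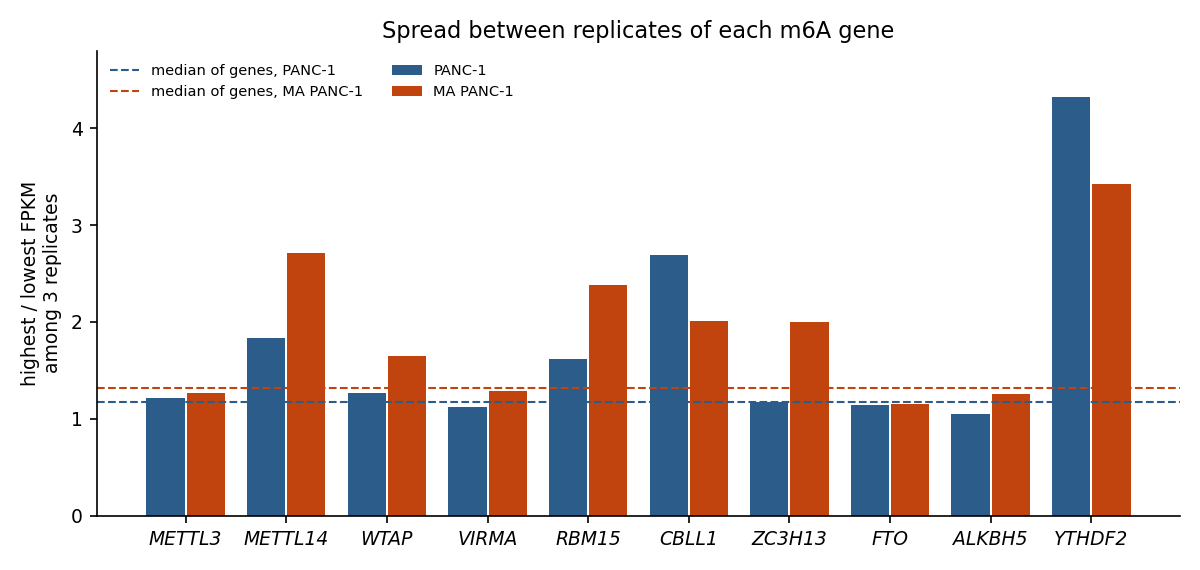
Ratio of the highest to the lowest FPKM among the 3 replicates of each group, for the 10 genes, with dashed lines at the medians of 11470 genes, 1.17 for PANC-1 and 1.32 for MA PANC-1. YTHDF2 stands highest in both groups, at 4.32 and 3.43.

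The GC content of the transcripts moved with the differences. The genes with negative log2 fold changes among the writers had transcripts of low GC content, 38.9% in METTL14, 40.8% in VIRMA, 42.3% in ZC3H13 and 43.6% in WTAP. ALKBH5 and RBM15, with positive values, had 52.9% and 54.1%. CBLL1, at 42.2%, had a positive value at a GC content close to that of ZC3H13. Across the 10 genes Pearson's r between GC content and log2 fold change was 0.35, and across 38 genes, these with the 28 tested genes of the further list described below, it was 0.42. Across 17721 tested genes with a GC value it was 0.16, and it was 0.03 without MA PANC-1 2. Without that library r was 0.34 across the 10 genes and 0.21 across the 38. These are descriptions across genes that share the same 6 libraries. With the GC trend removed, the log2 fold changes were −0.15 for METTL14, −0.15 for WTAP, 0.20 for ALKBH5 and 0.27 for RBM15, so the values of METTL14, VIRMA and WTAP were closer to 0, as described for VIRMA above.

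**Figure D5:**
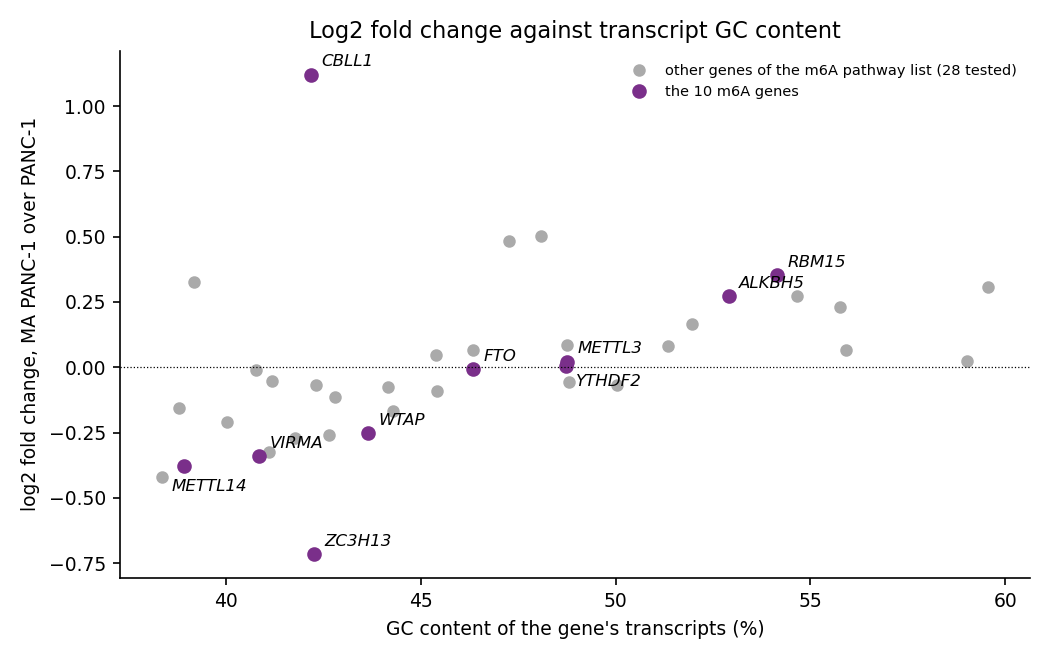
Log2 fold change of MA PANC-1 over PANC-1 against the GC content of each gene's transcripts in percent, for the 10 genes (purple, named) and the 28 tested genes of the further list (grey). Genes of higher GC content tend to have higher values (r = 0.42 over 38 genes, 0.21 without MA PANC-1 2), and CBLL1, at 42.2% GC and 1.12, lies far above genes of similar GC content.

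The start regions of the members were compared for short motifs, to see what the genes share in sequence. RefSeq promoters (GRCh38.p14, 250 bases before to 50 after the start) were found for 9 of the 10 genes, ALKBH5, CBLL1, FTO, METTL14, METTL3, RBM15, WTAP, YTHDF2 and ZC3H13. A search for 12 motifs on both strands was made after the values were known, and the windows below were chosen after the matches were seen. The ETS motif CCGGAAG was found in 4 of the 9 genes, CBLL1, METTL14, METTL3 and ZC3H13, and in 10.3% of 35116 promoters. The 9 genes have 11 promoters in the table, so a gene may have more than 1 chance to match. Of these 11 promoters, 4 held CCGGAAG and 5 the Sp motif named below. The 35116 promoters were not limited to genes expressed in these cells. Whether the 9 genes differ from other expressed genes was not tested. The 4 genes with CCGGAAG had log2 fold changes from −0.71 to 1.12, so the gene with the highest and that with the lowest value of the 10 both carry it. The CCAAT box was found in 7 of the 9 genes and 34.6% of promoters, the Sp motif GGGCGGG in 3 and 33.1%, the NRF1 motif GCATGCGC in 2 and 3.05%, and TATAAA in 1 and 11.5%. The YY1 motif ATGGCGGC and the CRE TGACGTCA were found in none of the 9, and in 3.00% and 1.85% of promoters. Of the remaining 5, CGGAAG, which lies within CCGGAAG, was found in 6 of the 9 genes and 19.5% of promoters, and CATGGCCGC in 1 and 0.478%. TGACGCA, a longer form of the YY1 motif and a palindromic motif of 10 letters were found in none of the 9, and in 2.47%, 1.2% and 0.424% of promoters. These are matches of letters and not binding sites. The windows of 30 bases around the ETS motif are shown 5′ to 3′ on the strand of the gene, with the motif or its reverse complement in capitals, for the genes of highest and lowest log2 fold change and the catalytic pair:
CBLL1, chr7:107744074-107744103, plus strand: cctcccggcctCCGGAAGgcagtgcgcacg
ZC3H13, chr13:46052762-46052791, minus strand: taatctgacggCCGGAAGctgcctgggtct
ZC3H13, chr13:46052718-46052747, minus strand: caaacctctgaCTTCCGGcggcattttgag
METTL3, chr14:21511452-21511481, minus strand: cctcactgtgtCCGGAAGcatgagagagcg
METTL14, chr4:118685345-118685374, plus strand: aggaggcgggaCTTCCGGgccaagcgagcc
METTL14, chr4:118685377-118685406, plus strand: ttccggccgcgCCGGAAGtctctactgagg

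The further list held 29 genes, which were readers, other methyltransferases and partners, methyl donor enzymes, decay factors and 5 genes (CBL, CBLB, CBLC, CDH1 and CTNND1) of the CBL family and around E-cadherin. Of the 29, 28 were tested, and none passed the adjusted threshold in edgeR. An unadjusted p-value under 0.05 was found for 2 of the 28, TRMT112 with the higher and YTHDC2 with the lower level in MA PANC-1, where all genes tested gave 11.2%. Both had an unadjusted p-value of 0.05 or more in 5 of the 6 fits that left out a sample, the exception being that without MA PANC-1 3. The median log2 fold change of the 28 was −0.03, against 0.00 for all genes. The groups did not overlap in 8 of the 28, against 19.9% of all genes tested. Of these 8, 2 were higher and 6 lower after MA, where all genes gave 8.80% and 11.1%. The remaining gene, CBLC, had no count in any sample.

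The readers and other binders of marked RNA made up 12 of the 28, of which 9 (75.0%) had a negative log2 fold change, as did 50.2% of all genes tested. Without MA PANC-1 2 it was 7 of the 12. YTHDC2, a helicase with a YTH domain, was at 1.78, 1.36 and 2.31 FPKM after MA and at 2.52, 2.33 and 2.59 FPKM without it. The groups did not overlap, and the log2 fold change was −0.42 (unadjusted p = 0.0456, adjusted p = 0.441 from edgeR), or −0.28 with MA PANC-1 2 left out. The nuclear reader YTHDC1, IGF2BP2, RBMX and FMR1 also had values in every MA PANC-1 sample below those of PANC-1, with log2 fold changes of −0.27, −0.05, −0.12 and −0.21 and unadjusted p-values of 0.111 to 0.558 (edgeR). Single libraries moved these values. Leaving out MA PANC-1 2 gave −0.14 for YTHDC1 and −0.12 for FMR1, and leaving out PANC-1 3 gave −0.0463 for RBMX. IGF2BP2 was at −0.0133 without PANC-1 2 and at −0.0979 without MA PANC-1 2. Among the paralogs of YTHDF2, YTHDF1 was steady, at 24.69 ± 1.205 FPKM (SD, n = 3) in MA PANC-1 and 22.6 ± 1.07 FPKM (SD, n = 3) in PANC-1, whereas YTHDF3 ranged from 3.45 to 8.67 FPKM over the 6 samples. These paralogs were named after their values were seen. HNRNPA2B1 and HNRNPC, abundant nuclear RNA-binding proteins, had log2 fold changes of −0.05 and −0.08 and were lowest in MA PANC-1 2, at 69.5 and 38.6 FPKM. With that library left out their values turned positive, at 0.0879 and 0.0611, whereas leaving out MA PANC-1 3 gave −0.17 and −0.28, the latter with an unadjusted p-value of 0.0409 (edgeR, adjusted p = 0.259).

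TRMT112, the partner that stabilizes METTL5 and other methyltransferases, was at 80.4, 83.0 and 73.9 FPKM after MA and at 62.9, 70.0 and 68.9 FPKM without it. The groups did not overlap, and its log2 fold change was 0.27 (unadjusted p = 0.0326, adjusted p = 0.432 from edgeR). Of the enzymes of the methyl donor cycle, MAT2A, which makes S-adenosylmethionine, had a log2 fold change of −0.09 (adjusted p = 0.703 from edgeR), or −0.0416 with MA PANC-1 2 left out. For MAT2A, leaving out PANC-1 1 gave −0.0507 and leaving out MA PANC-1 3 gave −0.1404. AHCY, which clears the product left by the methyl transfer, was at 80.8, 88.0 and 73.6 FPKM after MA and 72.0, 71.9 and 68.4 FPKM without it. Its groups did not overlap either, with a log2 fold change of 0.23 (unadjusted p = 0.0725, adjusted p = 0.471 from edgeR). For AHCY, leaving out MA PANC-1 2 gave 0.12. Leaving out MA PANC-1 3 gave 0.31 (unadjusted p = 0.0193, adjusted p = 0.218 from edgeR).

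The following 3 genes were named after their values were seen. METTL16, the methyltransferase that acts on MAT2A mRNA, reached 6.25 FPKM in MA PANC-1 2 but 2.79 to 3.22 FPKM elsewhere, with a log2 fold change of 0.50 (edgeR, adjusted p = 0.559) that was 0.0007 without that library. CBL, the E3 ligase after which CBLL1 was named, was at only 1.38 FPKM in PANC-1 1 but 7.87 to 9.13 FPKM elsewhere (log2 fold change 0.48, adjusted p = 0.763 from edgeR, and 0.01 without PANC-1 1). Leaving out PANC-1 2 gave a log2 fold change of 0.89 for CBL. CDH1, which encodes the CBLL1 substrate E-cadherin, was low in all samples, at 0.778, 1.12 and 0.783 FPKM after MA and 1.28, 0.795 and 0.818 FPKM without it. Its log2 fold change was −0.07 with an interval from −0.72 to 0.58 (edgeR, adjusted p = 0.942), and with any 1 sample left out it ranged from −0.31 (without MA PANC-1 2) to 0.19 (without PANC-1 1). By the rule on overlap, CBLB is named as well, at 0.319 to 0.345 FPKM in MA PANC-1 and 0.371 to 0.422 FPKM in PANC-1 (log2 fold change −0.26, adjusted p = 0.565 from edgeR).

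The genes whose log2 CPM followed that of CBLL1 most closely over the 6 samples, among 11469 others at or above a mean FPKM of 1, were PPIAP31, PSMA6, PDLIM1, RNASET2 and BRF2, with Pearson's r from 0.98 to 0.99. With 6 samples and so many genes, high values arise readily, and they are given as a description. By FPKM, a different scale from the log2 CPM of the correlation, all 5 were lowest in PANC-1 2 or 3, as CBLL1 was. By FPKM, 4 of them were highest in MA PANC-1 2, where PSMA6 was not. BRF2, a subunit of an RNA polymerase III initiation factor, was at 8.87, 9.84 and 8.997 FPKM after MA and at 8.41, 7.06 and 6.55 FPKM without it, a log2 fold change of 0.37 (adjusted p = 0.432 from edgeR). PSMA6, a proteasome subunit, ran from 18.6 to 20.3 FPKM.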

How the data were processed

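The authors deposited, per gene and sample, an FPKM value (a level scaled by gene length and depth, listed as 0.0001 without reads) and an estimated count in whole numbers without normalization. The submitters' processing notes name cutadapt 1.9, HISAT2 2.0.4 and StringTie 1.3.4d; the genome build is not given in the sources used here. Of 58552 gene identifiers found in GENCODE 29 (GRCh38), 47519 had identical positions.

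Samples were grouped by their titles. Genes whose mean FPKM reached 0.1 were tested on the counts with edgeR 4.0.16 (quasi-likelihood, TMM, R 4.3.3), adjusted by Benjamini-Hochberg over 17774 genes. A standard error is the log2 fold change divided by the square root of F, and intervals are 95%. Depth was 56978375 to 70275355 counts per sample, which are estimates, so the replicate spread sets the precision. The test was checked on simulated counts of independent samples. That simulation held no outlying library, GC trend or pairing, so it does not cover them.

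All 10 members are named. Of the pathway genes, those with an unadjusted p under 0.05, the 5 of highest mean FPKM and those without overlap are named, with 5 genes most like CBLL1. RBM15B, named as the paralog of RBM15, falls outside these rules, as do the genes named after their values were seen. Members and lists were chosen with earlier results of these data known.

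Alternatives were DESeq2 1.42.0, limma 3.58.1 on log2(FPKM + 0.1) and log2(FPKM + 1), RLE and upper quartile normalization, a stricter filter (mean FPKM 1), no filter, a replicate block, a GC correction (loess over transcript GC, span 0.5, fitted on mean counts from 100), both together, halved counts, summed overlapping genes and leaving out each sample.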

Additional observations from a re-analysis of the deposited data

How the results depend on the processing

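No alternative gave any of the 10 genes an adjusted p-value under 0.05. Of the 10, 2 to 3 had an unadjusted p-value under 0.05 with all 6 samples and 1 to 5 with a sample left out. Of the pathway list there were 2, or 1 under limma with either pseudocount, 4 with the GC correction, 4 with the replicate block and 0 to 7 with a sample left out. Over all genes, 7 passed the adjusted threshold, 259 in DESeq2, 34 with the GC correction, 12 at a mean FPKM of at least 1, and 3 to 24 with a sample left out. Same-numbered samples had deviations from their group means that correlated weakly, at 0.03, 0.05 and 0.07, and all 6 correlated best with their own number. The labels do not say whether the numbers pair the samples. With a replicate block the standard errors of all 10 genes were smaller. For METTL14 it was 0.22, against 0.38 without the block. For ZC3H13 it was 0.17, against 0.22, with an unadjusted p-value of 0.00566 (edgeR, adjusted p = 0.389). With the replicate block edgeR gave 0 genes past the adjusted threshold (2215 at an unadjusted p-value under 0.05), and 0 with block and GC correction (2237). The count at an unadjusted p-value under 0.05, 1995, was 1178 to 3213 with a sample left out. With a 2-fold change it was 342, 44 under limma with a pseudocount of 1, 93 at a mean FPKM of at least 1, 569 without a filter and 326 to 534 with a sample left out. The genes with values near 0 changed sign. METTL3 was at −0.0159 and −0.0143 under limma with pseudocounts of 0.1 and 1, FTO at 0.0411 with the GC correction and 0.0409 with the block too, and YTHDF2 at −0.0094 with upper quartile normalization, −0.0123 at a mean FPKM of at least 1 and −0.0014 without a filter. With a sample left out, METTL3 ran from −0.0464 to 0.1134, FTO from −0.0639 to 0.0311 and YTHDF2 from −0.6669 to 0.7705. Halved counts changed no call among the 10. Summing same-strand genes tested nothing, since the only such gene had 0 counts. The causes of these changes were not tested. Estimated counts give no counting error, so depth could not be turned into a limit of detection.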
